A study of Homo sapiens with 18 samples.

Results

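The RNA of 10 genes of the TGF-beta and BMP pathways was followed through 18 RNA-seq libraries of MDA-MB-231 cells, a basal, triple negative breast cancer line. The genes were the inhibitors of DNA binding ID1, ID2, ID3 and ID4, the feedback genes SMAD6, SMAD7, SKIL and BAMBI, and the ligand genes TGFB1 and TGFB2. They were taken by name, as the rows of the count matrix whose Ensembl identifier carries one of these symbols. These are 10 of 57448 gene rows, and all 10 were among the 15587 genes that passed the filter on low counts. The filter kept genes that reached 1 CPM, a count scaled to the size of its library, in 3 or more of the 18 libraries.

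Parental cells (WT) were set against pools in which GPS2, a subunit of a nuclear receptor corepressor complex, had been targeted with Cas9. KO1 and KO2 were made with separate sets of guide RNAs against exons 2 and 6, delivered by lentivirus, selected with puromycin and kept as heterogeneous pools rather than clones. The myrAKT line is the same parental line carrying a retroviral, membrane-anchored (myristoylated) and FLAG-tagged AKT1, a form that is constitutively active. No control vector is described for WT. Loss of GPS2 therefore cannot be told apart from lentivirus, Cas9 and puromycin, nor active AKT from the retrovirus. In the groups KO1+MK and KO2+MK the knockout pools received MK2206, an allosteric AKT inhibitor, at 10 µM for 4 h before collection, while WT, KO1, KO2 and myrAKT were untreated. Each of the 6 groups holds 3 replicates. Treated WT and treated myrAKT cells were not analysed here, so the effect of MK2206 could be measured in the knockout pools alone. The labels do not say that replicates were separate cultures, and p-values therefore measure the spread between these samples, which may be technical.

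Ligands of the TGF-beta family bind pairs of receptor kinases that phosphorylate SMAD proteins. TGF-beta and activins act mainly through SMAD2 and SMAD3, and BMPs through SMAD1, SMAD5 and SMAD9, each together with SMAD4. Among the genes that these complexes switch on are several that dampen the signal, such as the inhibitory SMADs, and the ID genes, whose proteins bind E proteins and keep them off DNA. AKT phosphorylates FOXO factors and holds them out of the nucleus, and FOXO and SMAD proteins are known to act together at some promoters.

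The libraries held 23419198 to 39319910 reads assigned to genes. The 6 treated libraries held 23419198 to 29939536 reads and the 12 untreated libraries 30287210 to 39319910, so depth and treatment moved together. VIM, a mesenchymal marker, had group means of 1366 to 1755 CPM, and CDH1, PGR and PTPRC did not pass the filter. Of the other markers, ESR1 had group means of 0.765 to 1.12 CPM, ERBB2 of 81.2 to 91.6 CPM and EPCAM of 3.22 to 12 CPM. GPS2 was at 4.57 ± 0.278 CPM (SD, n = 3) in WT, 4.50 ± 0.0364 in KO1 and 6.04 ± 0.123 in KO2, so its RNA was not lower in the libraries labelled as knockouts. Counts per gene do not show small edits, and GPS2 shares exons with a neighbouring gene read from the same strand. KO1 and KO2 therefore stand for the libraries so labelled wherever a direction is drawn. The study checked the knockout itself by western blot and genomic PCR, which were not analysed here. AKT1 was at 135 ± 1.00 CPM in WT and 231 ± 12 CPM in the myrAKT line. In these bulk samples, fewer cells of a type and less RNA per cell cannot be told apart.

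Per kilobase of exon, the mean over the 18 libraries was 37.6 CPM for TGFB1 and 22.4 for ID1, and these were the most abundant of the 10. TGFB2 followed with 7.64 CPM per kilobase, SKIL with 5.82, ID3 with 3.77 and BAMBI with 3.04. SMAD6 had 1.75, ID2 1.44, SMAD7 0.721 and ID4 0.576 CPM per kilobase. ID4 passed the filter through 9 libraries, of which 0 were WT, 0 were myrAKT, 1 was KO1, 2 were KO2 and 6 were treated. The filter used library totals, and KO1 values just above 1 CPM below are on the TMM scale. It was therefore kept because of the groups in which it was higher, and the other 9 genes had at least 1 CPM in all 18 libraries.

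The start regions of the genes are shown because several of the genes moved together after MK2206 and because SMAD and FOXO factors read short motifs there. RefSeq (GRCh38.p14) gave 12 windows for the 10 genes, each of 250 bases before to 50 bases after a start site. The SMAD box CAGAC was found on either strand in windows of 6 genes (ID3, ID4, BAMBI, SKIL, SMAD7 and TGFB2), and 45.3% of the 35116 windows of this length in the table hold it. The palindromic SMAD site GTCTAGAC occurred in 1 of the 10 genes, SMAD6, and in 0.202% of all windows. The GC-rich SMAD site GGCGCC was present for BAMBI and SKIL and in 19.2% of all windows. The FOXO site GTAAACA was in 0 of the 12 windows and in 3.42% of all windows, and the CRE, TGACGTCA, was in the SKIL window and in 1.85% of all windows. No match overlapped another. A match describes letters and does not show that a factor binds.

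The upstream bases that lie outside the annotated gene are given 5′ to 3′ on the gene's own strand for 5 genes that carry a match and on which results below turn, with matches to CAGAC, GTCTAGAC or GGCGCC in capitals (on the other strand CAGAC reads GTCTG). They are ID3 (chr1:23559502-23559751, minus strand), ID4 (chr6:19837120-19837369, plus strand), BAMBI (chr10:28677271-28677509, plus strand), SMAD6 (chr15:66701986-66702235, plus strand) and SMAD7 (chr18:48950966-48951215, minus strand, the window before the annotated gene).
ID3: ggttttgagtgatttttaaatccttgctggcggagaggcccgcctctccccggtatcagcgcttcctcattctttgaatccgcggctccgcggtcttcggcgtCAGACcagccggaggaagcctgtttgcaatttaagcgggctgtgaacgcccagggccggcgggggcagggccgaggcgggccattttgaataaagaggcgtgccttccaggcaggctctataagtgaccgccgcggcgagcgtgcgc
ID4: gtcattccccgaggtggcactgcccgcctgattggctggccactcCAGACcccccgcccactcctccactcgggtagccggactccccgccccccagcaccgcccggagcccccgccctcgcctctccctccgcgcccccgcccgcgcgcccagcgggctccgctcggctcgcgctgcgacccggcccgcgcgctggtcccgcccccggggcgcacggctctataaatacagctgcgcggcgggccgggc
BAMBI: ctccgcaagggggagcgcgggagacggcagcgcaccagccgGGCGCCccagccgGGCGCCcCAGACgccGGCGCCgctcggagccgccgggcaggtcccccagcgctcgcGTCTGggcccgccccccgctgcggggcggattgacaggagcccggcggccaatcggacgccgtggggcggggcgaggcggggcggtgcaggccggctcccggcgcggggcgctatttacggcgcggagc
SMAD6: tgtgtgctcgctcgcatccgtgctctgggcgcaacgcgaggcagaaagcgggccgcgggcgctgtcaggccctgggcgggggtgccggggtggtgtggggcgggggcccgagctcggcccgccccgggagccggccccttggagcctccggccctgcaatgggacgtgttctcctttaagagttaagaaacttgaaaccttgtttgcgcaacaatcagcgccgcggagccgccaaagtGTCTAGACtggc
SMAD7: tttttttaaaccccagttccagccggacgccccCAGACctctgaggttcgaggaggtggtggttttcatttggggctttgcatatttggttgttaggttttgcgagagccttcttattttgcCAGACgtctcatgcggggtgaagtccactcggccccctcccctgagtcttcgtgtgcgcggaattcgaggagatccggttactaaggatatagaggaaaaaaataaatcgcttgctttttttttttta
Counted from the start site, with negative positions upstream, the capitals begin at -147 for ID3 and at -205 for ID4. BAMBI holds 3 GC-rich sites, at -209, -196 and -181, among matches to the SMAD box at -189 and -140. The palindrome of SMAD6 begins at -12, and the SMAD7 boxes begin at -217 and -128.

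The first question was how these genes differed between the knockout pools and WT in untreated cells. ID3, an ID protein that BMP signals induce, was 3.00-fold higher in the knockout pools than in WT, and it was the 1 gene of the 10 that passed the test when both pools were tested as 1 group (adjusted p of 0.001 or less, edgeR's quasi-likelihood test). The rate over all tested genes in that comparison was 32.1%. The median log2 fold change of the 10 was -0.10, beside -0.00291 for all tested genes. With each pool tested alone, 4 of the 10 genes passed in KO1 (41.7% of all genes) and 3 in KO2 (43.1% of all genes), and ID3 was the gene called in both. Libraries without overlap were common against WT. They were found for 8715 of the 15587 tested genes with both pools together, 10783 in KO1 and 10952 in KO2. Of the cell markers, EPCAM was at 12 ± 0.243 CPM (SD, n = 3) in WT, 9.65 ± 0.705 in KO1 and 8.67 ± 0.341 in KO2, and VIM at 1366 ± 46.4, 1552 ± 19.6 and 1650.4 ± 44.3. EPCAM was lower over both pools (log2 fold change -0.41, adjusted p = 0.000495), PECAM1, an endothelial adhesion gene, was lower in KO1 (-1.08, adjusted p = 5.24e-06), and VIM was higher in each pool alone. The part of the markers in the results below was not tested. The plot of CPM by library shows these groups beside the others.

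**Figure D1:**
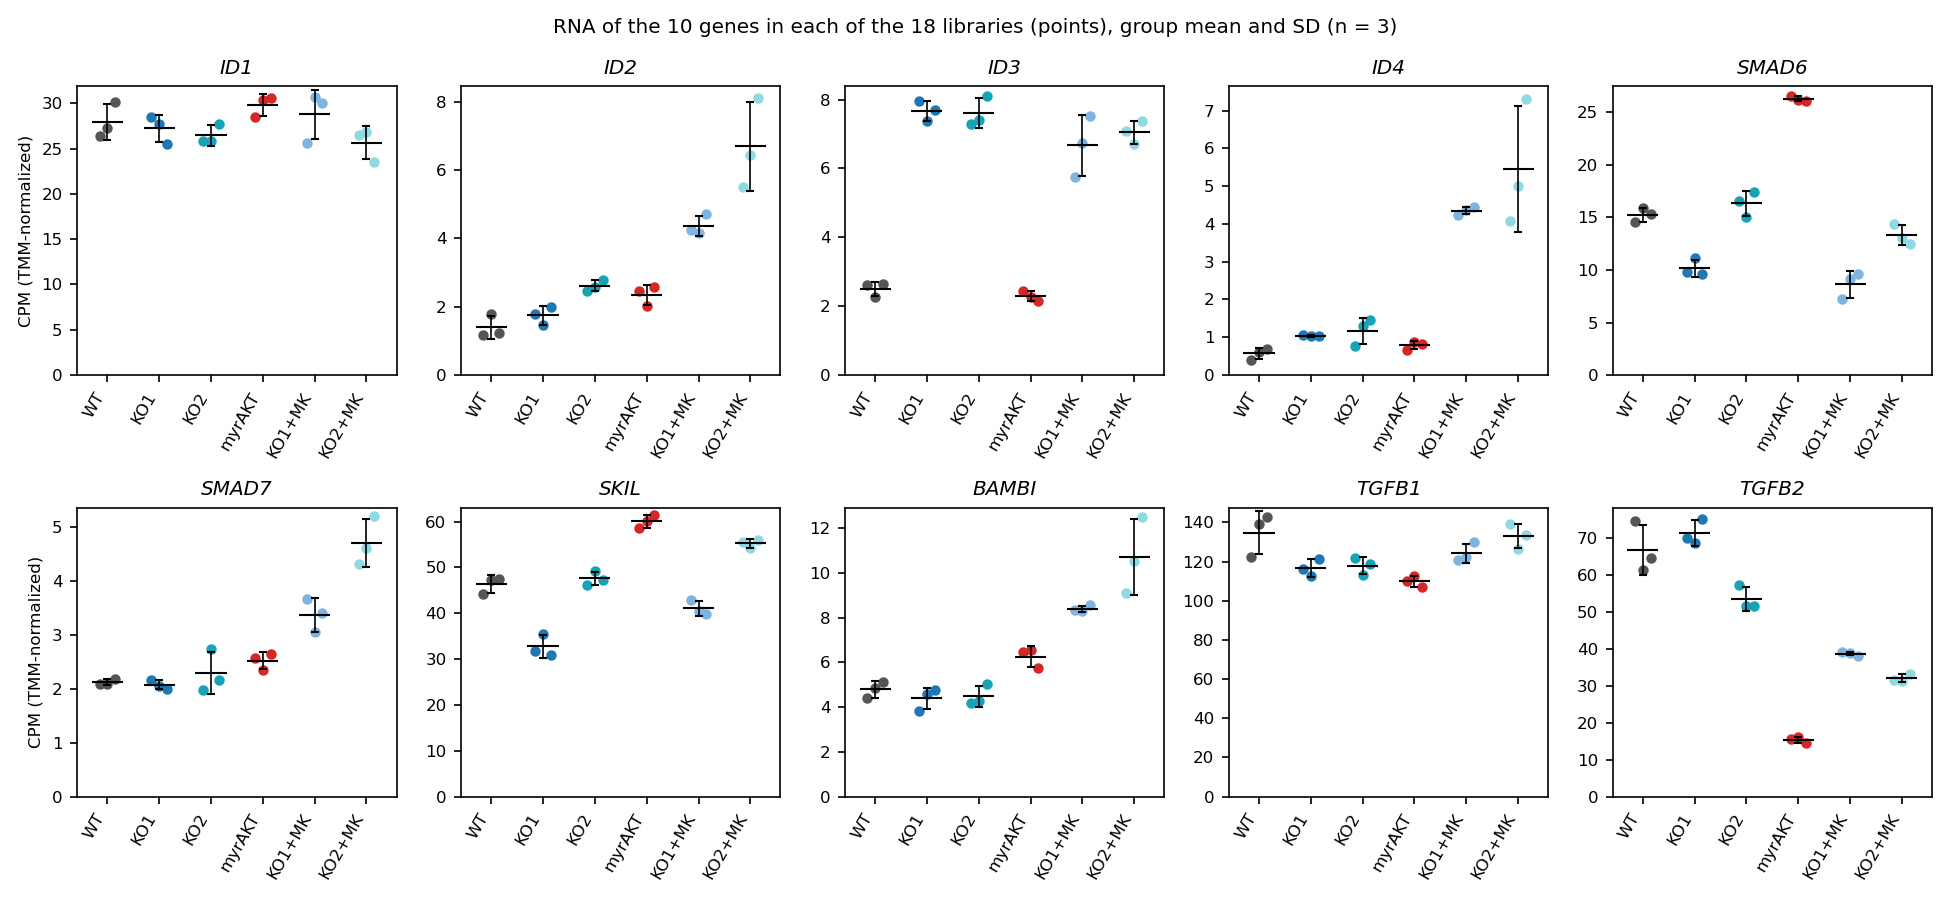
RNA of the 10 genes in CPM (vertical axes from 0, a separate scale per gene) in the 6 groups (horizontal axis); points are libraries, bars the mean and SD of 3 replicates. ID3 is between 7.31 and 8.10 CPM in the untreated knockout libraries and between 2.15 and 2.64 in WT and myrAKT, TGFB2 is lowest in myrAKT, and ID2, ID4, SMAD7 and BAMBI are highest in the treated pools.

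ID3 (ENSG00000117318) lies on chromosome 1 of hg38 from 23557926 to 23559501. Its levels were 2.61, 2.28 and 2.64 CPM in the WT libraries, 7.96, 7.39 and 7.70 in KO1 and 7.31, 7.40 and 8.10 in KO2. All 6 knockout libraries were above all WT libraries, and the pools overlapped each other. The log2 fold change of both pools against WT was 1.59 ± 0.0854 (SE, adjusted p = 1.47e-07), with 1.59 in KO1 (adjusted p = 7.58e-09) and 1.59 in KO2 (adjusted p = 2.61e-08). The WT values rest on 83 to 98 counts per library.

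The other ID genes gave different pictures. ID1 (ENSG00000125968, chromosome 20, 31605283 to 31606515), the most abundant ID gene here, had group means between 25.6 and 29.8 CPM, and each group overlapped the next in order of level. ID2 (ENSG00000115738, chromosome 2, 8678845 to 8684461) was at 1.17, 1.79 and 1.24 CPM in WT, 1.79, 1.46 and 1.99 in KO1 and 2.46, 2.58 and 2.78 in KO2. KO1 overlapped WT, with a log2 fold change of 0.30 (adjusted p = 0.193), while KO2 lay above WT and rose by 0.89 (adjusted p = 0.000685). That call was lost when any library other than WT replicate 2 was left out, with log2 fold changes from 0.77 to 0.91 and an adjusted p of up to 0.0056. Exons of ID2 share 145 of 2213 bases with ID2-AS1 on the other strand, which had at most 9 counts in a library.

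ID4 (ENSG00000172201, chromosome 6, 19837370 to 19842197) was low in untreated cells. It was at 0.411, 0.604 and 0.700 CPM in WT, from 14, 22 and 26 counts. In KO1 it was at 1.05, 1.03 and 1.02 CPM and in KO2 at 0.773, 1.29 and 1.45. The 6 knockout libraries lay above the 3 WT libraries, but the log2 fold change of 0.92 did not pass the test (adjusted p = 0.00568). In KO2 alone the value was 1.02 (adjusted p = 0.00645), and it passed when no filter was set on low counts (adjusted p = 0.000312).

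Among the feedback genes, SMAD6 and SKIL separated the pools. SMAD6 (ENSG00000137834, chromosome 15, 66702236 to 66782849) encodes an inhibitory SMAD that acts mainly on BMP signals. Its levels were 14.5, 15.9 and 15.3 CPM in WT, 9.78, 11.1 and 9.64 in KO1 and 16.5, 15.1 and 17.4 in KO2. KO1 fell below WT by 0.60 on the log2 scale (adjusted p = 4.61e-06), while KO2 overlapped WT (log2 fold change 0.09, adjusted p = 0.241). SKIL (ENSG00000136603, chromosome 3, 170357342 to 170396835) encodes SnoN, a corepressor of SMAD complexes. It was at 44.2, 47.3 and 47.6 CPM in WT, 31.8, 35.5 and 30.9 in KO1 and 46.3, 49.2 and 47.4 in KO2. The KO1 libraries again lay below all WT libraries, with a fall by 0.52 (adjusted p = 8.92e-07), and KO2 did not (log2 fold change 0.03, adjusted p = 0.564). With the pools combined SKIL had a log2 fold change of -0.23 (adjusted p = 0.201), which passed when all 18 libraries shared 1 fit (adjusted p = 4.44e-05).

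SMAD7 (ENSG00000101665, chromosome 18, 48919853 to 48950965), the inhibitory SMAD that targets TGF-beta receptors, was at 2.12 ± 0.0548 CPM (SD, n = 3) in WT, 2.07 ± 0.0851 in KO1 and 2.29 ± 0.396 in KO2. BAMBI (ENSG00000095739, chromosome 10, 28677510 to 28682932), a pseudoreceptor without a kinase domain, was at 4.79 ± 0.372, 4.39 ± 0.482 and 4.49 ± 0.462 CPM in the same groups. The knockout libraries of both genes overlapped WT, and neither passed the test (adjusted p = 0.886 for SMAD7 and 0.292 for BAMBI).

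The ligand genes moved little in the knockouts. TGFB1 (ENSG00000105329, chromosome 19, 41301587 to 41353922) was at 122, 139 and 143 CPM in WT, 116, 113 and 121 in KO1 and 122, 113 and 119 in KO2, with WT replicate 1 nearest to the knockouts. It fell by 0.23 in KO1 (adjusted p = 0.00086), a call lost with size factors of DESeq2 (adjusted p = 0.00142), with all 18 libraries in 1 fit (0.00106) and without any library but WT replicate 1 (adjusted p of up to 0.0153). For both pools the log2 fold change was -0.22 (adjusted p = 0.00226), and for KO2 it was -0.20 (adjusted p = 0.00466). Without WT replicate 1 both passed, with values of -0.28 (adjusted p = 0.000255) and -0.28 (4.71e-06). With DESeq2 both passed as well (adjusted p = 0.000507 and 0.000636), as did both pools with library totals (0.000917) or all 18 libraries in 1 fit (0.000295), and KO2 without the filter (0.0005). TGFB1 shares 215 of its 3264 exonic bases with HNRNPUL1 on the other strand, and the strand setting of the counting is not given in the sources used here. HNRNPUL1 averaged 15190 counts per library.

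TGFB2 (ENSG00000092969, chromosome 1, 218345336 to 218444619) was at 74.4, 61.3 and 64.5 CPM in WT, 69.8, 68.6 and 75.1 in KO1 and 57.2, 51.4 and 51.5 in KO2. KO1 overlapped WT (log2 fold change 0.08, adjusted p = 0.28), whereas KO2 lay below it and fell by 0.33 (adjusted p = 0.000336). The fall in KO2 no longer passed without WT replicate 3 (log2 fold change -0.35, adjusted p = 0.00159), KO2 replicate 2 (-0.31, 0.00147) or KO2 replicate 3 (-0.32, 0.00216). TGFB2 shares 701 of 6050 exonic bases with TGFB2-AS1 on the other strand, which averaged 98.9 counts per library. It shares 1371 bases with TGFB2-OT1 on the same strand, which had 0 counts.

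The pools were then compared directly. In KO1 against KO2, 3 of the 10 genes passed, beside 12.6% of all genes. SMAD6 was lower in KO1 by a log2 difference of -0.69 (adjusted p = 1.4e-06), SKIL by -0.55 (adjusted p = 4.14e-07), and TGFB2 was higher by 0.41 (adjusted p = 2.78e-06). ID2 had a log2 difference of -0.59 that did not pass (adjusted p = 0.00691). The libraries of the pools did not overlap for these 4 genes, nor for 7120 of the 15587 tested genes. Of the cell markers, PECAM1 was at 1.72 ± 0.169 CPM (SD, n = 3) in KO1 and 3.98 ± 0.204 in KO2, and its part in these differences was not tested.

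The line with constitutively active AKT was then set against WT for the same RNAs. TGFB2 fell furthest, and SMAD6 and SKIL rose. In all, 4 of the 10 genes passed against WT, 2 in each direction, beside 30.0% of all genes, and the median log2 fold change of the 10 was 0.31, beside 0.0163 for all genes. The libraries of myrAKT and WT did not overlap for 9495 of the 15587 tested genes. The WT libraries are those used for the knockouts, so the comparisons are not independent. The plot of log2 fold changes sets them side by side.

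**Figure D2:**
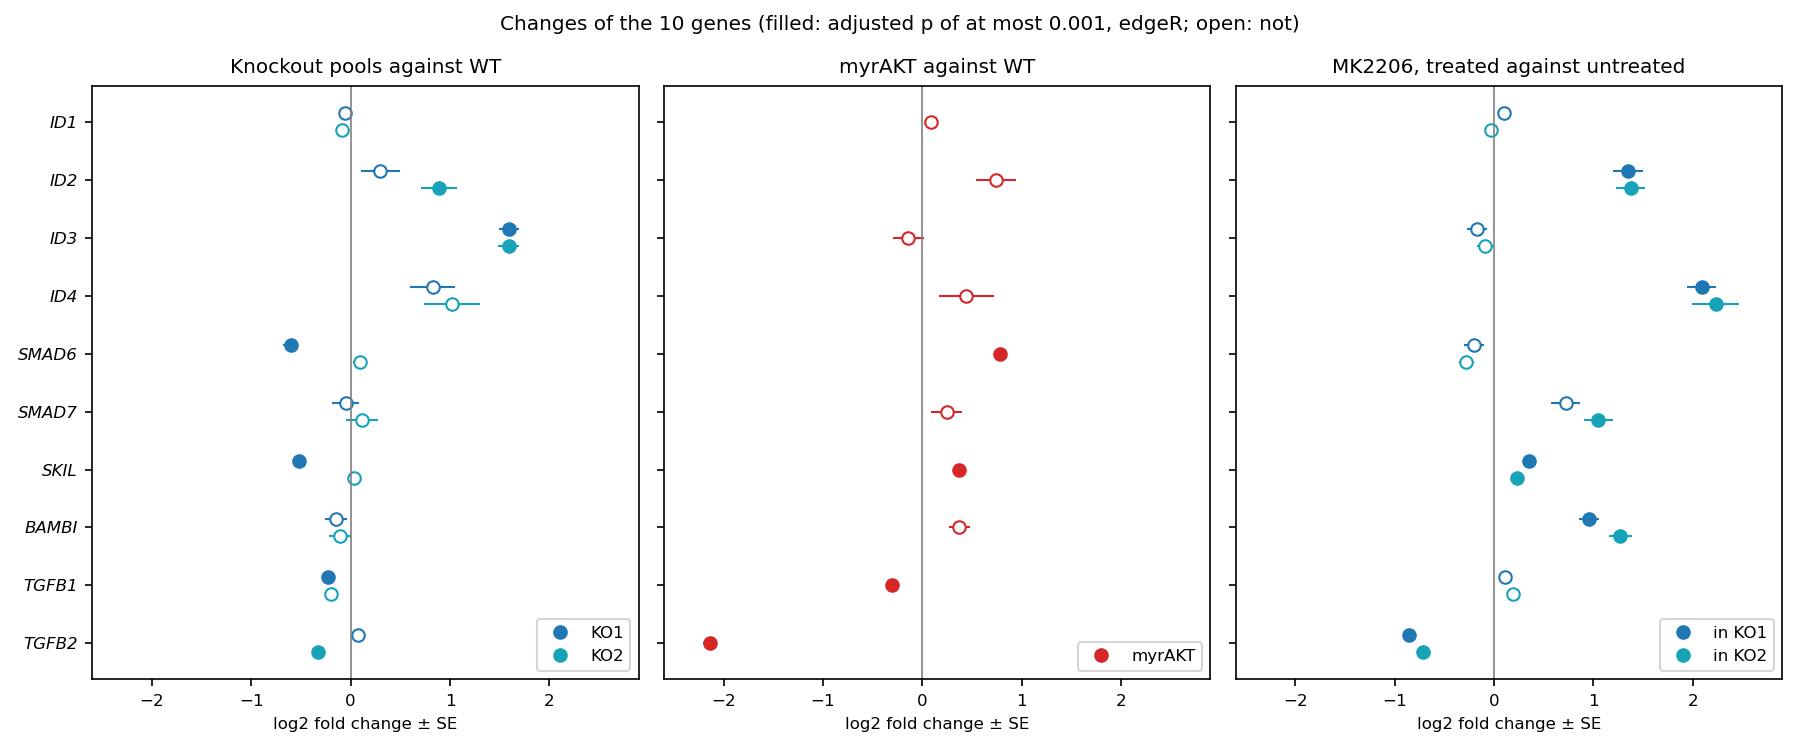
Log2 fold change (horizontal axis) of each gene (vertical axis) for KO1 and KO2 against WT, myrAKT against WT, and treated against untreated KO1 and KO2; bars are SE and filled points had an adjusted p of 0.001 or less. ID3 stands at 1.59 in both pools, TGFB2 at -2.13 in myrAKT, and ID4 at 2.09 and 2.23 after MK2206.

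TGFB2 was at 15.4, 16.0 and 14.4 CPM in the myrAKT libraries. All 3 were far below the lowest WT library, and also below every knockout library, treated or not. The log2 fold change was -2.13 ± 0.071 (SE, adjusted p = 1.69e-11). TGFB1 was at 110, 113 and 107 CPM and fell by 0.30 (adjusted p = 0.000384). That smaller call did not hold without WT replicate 2 (adjusted p = 0.00267), WT replicate 3 (0.00399), myrAKT replicate 1 (0.00111) or myrAKT replicate 2 (0.00106).

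SMAD6 reached 26.5, 26.2 and 26.1 CPM in myrAKT, the highest values of this gene in any of the 18 libraries. It rose by 0.78 ± 0.0591 on the log2 scale (SE, adjusted p = 6.79e-08). SKIL was at 58.7, 60.1 and 61.5 CPM, also above every other library, and rose by 0.37 (adjusted p = 1.74e-05). BAMBI was at 6.47, 6.58 and 5.73 CPM, above its WT libraries, with a log2 fold change of 0.37 that did not pass (adjusted p = 0.0102). SMAD7 was at 2.56, 2.34 and 2.65 CPM, likewise above WT without passing (0.24, adjusted p = 0.192).

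The ID genes did not pass in myrAKT. ID3, at 2.44, 2.28 and 2.15 CPM, overlapped WT (log2 fold change -0.14, adjusted p = 0.463). ID2 was at 2.47, 2.02 and 2.57 CPM, above the WT libraries (0.74, adjusted p = 0.00671). ID4 was at 0.662, 0.866 and 0.830 CPM and overlapped WT (0.44, adjusted p = 0.193), and so did ID1 (0.09, adjusted p = 0.262). Of the cell markers, PECAM1 was at 21.1 ± 1.31 CPM (SD, n = 3) in myrAKT and 3.58 ± 0.181 in WT, while PTPRC had a group mean of at most 0.130 CPM. EPCAM was at 3.22 ± 0.0549 CPM in myrAKT and 12 ± 0.243 in WT. Their part in these results was not tested.

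Tested directly, the knockout pools and the myrAKT line differed in 4 of the 10 genes, beside 35.8% of all genes. ID3 was higher in the knockouts by a log2 difference of 1.72 (adjusted p = 2.45e-08) and TGFB2 by 2.01 (adjusted p = 2.15e-07). Libraries did not overlap for ID3, TGFB2, SMAD6, BAMBI or SKIL, which held for 8823 of the 15587 tested genes. SMAD6 was lower by -1.0 (adjusted p = 0.000409) and BAMBI by -0.51 (adjusted p = 0.000662). The SMAD6 call was lost without any 1 of the myrAKT libraries (adjusted p of up to 0.00266), and that of BAMBI without any library but KO2 replicate 3 (up to 0.0053) or with no filter on low counts (0.00202). SKIL had a difference of -0.60 (adjusted p = 0.00365) and passed with DESeq2 (adjusted p = 8.62e-05), without the filter (5.42e-07) and with all 18 libraries in 1 fit (9.84e-12). ID1, with -0.17 (adjusted p = 0.0125), did not pass.

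MK2206 was added to the knockout pools to ask which changes depend on AKT activity. After 4 h, ID2, ID4, SMAD7 and BAMBI had risen and TGFB2 had fallen in both pools combined, so that 5 of the 10 genes passed, beside 21.5% of all genes, and the median log2 fold change of the 10 was 0.22, beside -0.00313 for all genes. That fit held no term for the pool. With the pool as a factor 7 of the 10 genes passed, beside 36.3% of all genes. In KO1 alone 5 genes passed (19.2% of all genes) and in KO2 alone 6 (21.9% of all genes). Treated and untreated libraries did not overlap for 4284 of the 15587 tested genes over both pools, 8654 in KO1 and 8624 in KO2. ID3, the gene that was higher in both knockout pools, did not pass. The treated libraries were the shallower ones, and EPCAM was at 7.61 ± 0.336 CPM (SD, n = 3) in KO1+MK and 6.36 ± 0.616 in KO2+MK, below its untreated pools without passing the test over both (log2 fold change -0.37, adjusted p = 0.00178). VIM, at 1408.5 ± 95.9 and 1468 ± 47.5 CPM, did not pass either (-0.13, adjusted p = 0.0112). The part of depth and of these markers in the results was not tested.

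ID4 entered the tests mainly through the treated libraries, in all 6 of which it reached 1 CPM, so a difference in this direction was favoured by the filter. It was at 4.25, 4.38 and 4.43 CPM in KO1+MK and at 4.07, 5.01 and 7.30 in KO2+MK. Every treated library was above every untreated one, and KO2+MK replicate 3 was the highest. The log2 fold change over both pools was 2.17 ± 0.174 (SE, adjusted p = 3.49e-07), a 4.50-fold difference, with 2.09 in KO1 (adjusted p = 2.7e-07) and 2.23 in KO2 (adjusted p = 2.46e-06). These values rest on 102 to 218 counts per treated library.

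ID2 was at 4.25, 4.15 and 4.71 CPM in KO1+MK and 5.52, 6.45 and 8.11 in KO2+MK. Both treated groups were clear of their untreated pools, and KO2+MK lay above KO1+MK in all libraries. The gene rose by 1.37 ± 0.192 over both pools (SE, adjusted p = 4.81e-05), by 1.35 in KO1 (adjusted p = 1.32e-05) and by 1.38 in KO2 (adjusted p = 2.29e-06). ID3 was at 5.75, 6.75 and 7.53 CPM in KO1+MK and 7.10, 6.70 and 7.37 in KO2+MK, overlapping the untreated pools (log2 fold change -0.13, adjusted p = 0.119). All 6 treated values were above the highest WT library. ID1 also overlapped its untreated pools (0.04, adjusted p = 0.602).

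BAMBI was at 8.33, 8.31 and 8.56 CPM in KO1+MK and 9.12, 10.5 and 12.5 in KO2+MK. Every treated library was above the untreated knockout libraries, which reached 5.02 CPM at most, and above those of WT and myrAKT. The log2 fold change was 1.13 ± 0.108 over both pools (SE, adjusted p = 1.63e-06), 0.96 in KO1 (adjusted p = 7.25e-06) and 1.27 in KO2 (adjusted p = 7.71e-07). SMAD7 was at 3.66, 3.04 and 3.40 CPM in KO1+MK and 4.31, 4.61 and 5.19 in KO2+MK. It rose by 0.91 ± 0.137 over both pools (SE, adjusted p = 9.07e-05) and by 1.05 in KO2 (adjusted p = 3.74e-05). In KO1 the libraries did not overlap but the change of 0.72 did not pass (adjusted p = 0.00136). It passed without the filter on low counts (adjusted p = 0.000267) and with all 18 libraries in 1 fit (0.000278).

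SKIL was at 42.9, 40.5 and 39.9 CPM in KO1+MK and 55.6, 54.2 and 56.1 in KO2+MK. Within each pool the treated libraries were above the untreated ones, and the gene rose by 0.35 in KO1 (adjusted p = 0.000349) and 0.23 in KO2 (adjusted p = 0.000469). Over both pools the change of 0.28 did not pass (adjusted p = 0.105), and with the pool as a factor it did (0.29, adjusted p = 3.5e-06), as with all 18 libraries in 1 fit (0.27, 7.46e-07). The call in KO1 was lost without KO1 replicate 1, KO1 replicate 3 or KO1+MK replicate 2 (adjusted p of up to 0.00365), and that in KO2 without KO2 replicate 1, KO2 replicate 3, KO2+MK replicate 2 or KO2+MK replicate 3 (up to 0.00556). SMAD6, the other gene that set the pools apart, was at 7.20, 9.16 and 9.59 CPM in KO1+MK and 14.3, 13.1 and 12.5 in KO2+MK. These lay below their untreated pools without passing the test (-0.20 in KO1, adjusted p = 0.117, and -0.28 in KO2, adjusted p = 0.00572). Over both pools SMAD6 had -0.25 (adjusted p = 0.303), which passed with all 18 libraries in 1 fit (adjusted p = 0.000863).

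TGFB2 was at 39, 38.8 and 38.1 CPM in KO1+MK and 31.6, 31.3 and 33.2 in KO2+MK. All treated libraries were below all untreated knockout and WT libraries and above those of myrAKT. The fall was by 0.80 ± 0.10 on the log2 scale (SE, adjusted p = 1.76e-05), by 0.86 in KO1 (adjusted p = 2.96e-08) and by 0.72 in KO2 (adjusted p = 7.43e-08). TGFB2 was thus the gene of the 10 that fell both in the line with active AKT, against WT, and in knockout cells given the AKT inhibitor, against untreated knockout cells. TGFB1 was at 121, 122 and 130 CPM in KO1+MK and 139, 127 and 134 in KO2+MK, with a log2 fold change of 0.15 that did not pass (adjusted p = 0.00324) unless the pool was a factor (0.15, adjusted p = 0.000215) or library totals set the scale (0.17, 0.000998). In KO2 alone its change of 0.19 (adjusted p = 0.00116) passed with DESeq2 (0.000163), library totals (0.000835) and no filter (0.000205).

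The MK2206 effect was also compared between the pools, as an interaction term. None of the 10 genes passed in edgeR (adjusted p of 0.634 to 0.983), 0 had an unadjusted p under 0.05, and 0 passed in DESeq2, which gave no adjusted p for ID4 and SMAD7. Over all genes 2 passed, or 0.0128%, and 1251 had an unadjusted p under 0.05. The differences of the log2 effect, KO1 minus KO2, that lay farthest from 0 were -0.33 for SMAD7 and -0.31 for BAMBI.

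Other genes of the pathway, 63 in all, were grouped by role, and 58 of them were tested. In both knockout pools against WT, 4 rose and 19 fell, with a median log2 fold change of -0.14 beside -0.00291 for all tested genes, of which 32.1% were called (2420 higher and 2586 lower). Tested pool by pool, 9 rose and 24 fell in KO1 (41.7% of all genes called), and 9 rose and 23 fell in KO2 (43.1%). SMAD3, the main transcription factor of TGF-beta signals, was at 311 CPM in WT and 198 in the knockouts (log2 fold change -0.67, adjusted p = 2.3e-06), and the other 5 SMAD genes of the list did not pass in the combined pools. In KO1 alone 2 of the 6 fell, and in KO2 alone 1. Of 12 tested SMAD target genes 2 rose and 7 fell, among them BHLHE40, a transcriptional repressor (-1.18, adjusted p = 1.61e-07), and JUNB, an AP-1 subunit (-1.01, adjusted p = 8.44e-05). ATOH8, a helix-loop-helix factor, rose by 1.61 (adjusted p = 0.000463), but it was at 0.440 CPM at most in WT and passed the filter only through untreated knockout libraries. Of 11 tested genes that store or block ligands 6 fell and 0 rose in the combined pools, while 7 fell and 3 rose in KO1 alone and 6 fell and 1 rose in KO2 alone. The largest falls were those of LTBP3, which holds latent TGF-beta in the matrix, with -1.69 (adjusted p = 5.34e-05) and of the BMP antagonist CHRD with -1.56 (adjusted p = 3.8e-05). Of 11 receptors 2 fell, TGFBR2 by 0.42 (adjusted p = 7.05e-06) and ACVR2B by 0.45 (adjusted p = 0.000227), while 4 fell and 1 rose in KO1 alone and 2 fell and 1 rose in KO2 alone. Of 7 ligands 1 rose and 1 fell, GDF11 with 0.59 and BMP6 with -0.87, while 1 rose and 1 fell in KO1 alone and 2 rose and 4 fell in KO2 alone. Among 8 other feedback and corepressor genes SKI, a repressor related to SKIL, rose by 0.44 (adjusted p = 2.53e-06), and TGIF1 fell by 0.58.

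In myrAKT against WT 11 of the 58 rose and 16 fell, with a median of -0.08 beside 0.0163 for all genes, of which 30.0% were called (1980 higher and 2697 lower). PMEPA1, a TGF-beta target that sequesters SMAD2 and SMAD3, was at 7.81 CPM in WT and 47.3 in myrAKT, a log2 fold change of 2.59 (adjusted p = 3.16e-12). SMAD3 fell by 0.72 here too (adjusted p = 1.67e-08). BMPER, a secreted BMP regulator, was at 3.43 CPM in WT and 0.246 in myrAKT (-3.80, adjusted p = 6.1e-09), and the activin antagonist FST fell by 1.68 (adjusted p = 8.56e-10), while LTBP1 rose by 0.89. Of the 12 targets 3 rose, with HEY1 at 1.36 and the cell cycle inhibitor CDKN1A at 0.75, and 3 fell, with TGFBI, a matrix protein gene induced by TGF-beta, at -0.83 (adjusted p = 8.79e-09). TCF4 was the 1 of 3 E protein genes that passed, with -1.44 (adjusted p = 5.6e-05).

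After MK2206 11 of the 58 rose and 10 fell, with a median of -0.00474 beside -0.00313 for all genes, of which 21.5% were called (1988 higher and 1364 lower). Tested pool by pool, 14 rose and 12 fell in KO1 (19.2% of all genes called), and 12 rose and 11 fell in KO2 (21.9%). Of the 8 other feedback and corepressor genes 4 rose and 3 fell. SKI rose by 0.63 and PMEPA1 by 0.74, and the ubiquitin ligase genes NEDD4L and SMURF2, whose products act on SMADs and receptors, fell by 0.56 and 0.43. NOG, a BMP antagonist, fell from 20.4 to 6.48 CPM (-1.63, adjusted p = 3.59e-08), and FST fell by 1.28 (adjusted p = 1.09e-05). Of 11 receptors 2 rose and 1 fell. The activin receptor genes ACVR2A and ACVR2B rose by 0.64 and 0.76, and TGFBR2 fell by 0.26 (adjusted p = 2.99e-05). SMAD4 rose by 0.33 and SMAD3 fell by 0.43. Of 12 SMAD target genes 4 rose, with CDKN1A at 1.86 (adjusted p = 3.8e-08) and JUNB at 1.56 (adjusted p = 4.91e-07), and 2 fell, SNAI2 by 1.17 and TGM2 by 0.18. The activin subunit gene INHBA was the 1 ligand of 7 that passed in the combined pools, with -1.01 (adjusted p = 0.000199), while 2 fell and 0 rose in KO1 alone and 2 fell and 2 rose in KO2 alone. The plot of pathway genes by role shows all 58.

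**Figure D3:**
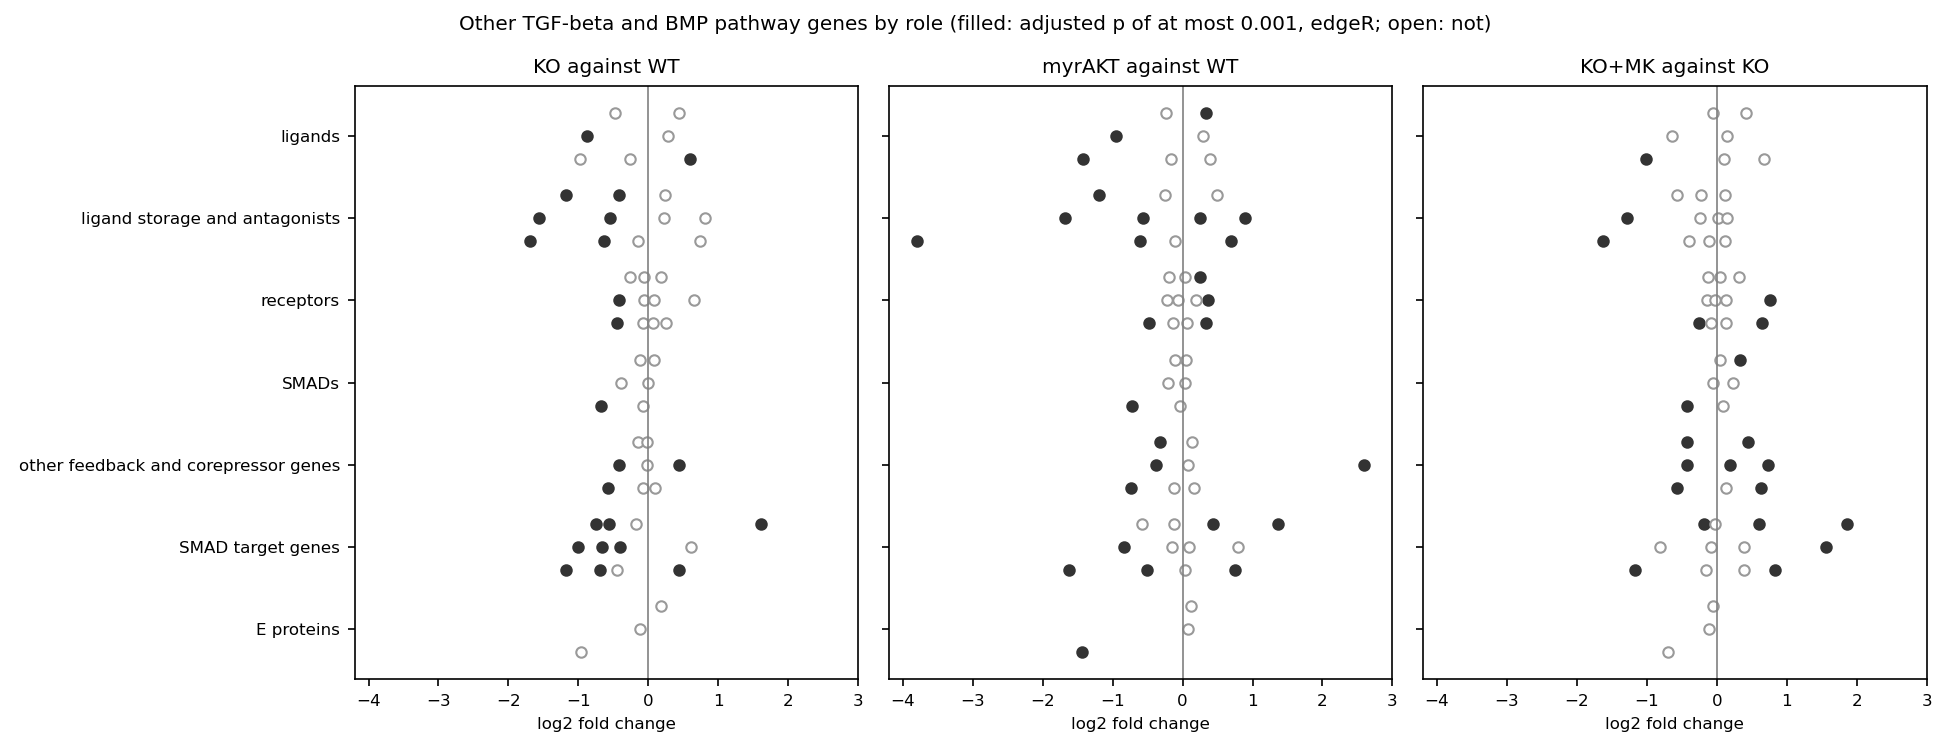
Log2 fold change (horizontal axis) of the other pathway genes tested, by role (rows), for both knockout pools against WT, myrAKT against WT and treated against untreated knockout pools; filled points had an adjusted p of 0.001 or less, and genes are not labelled. PMEPA1 stands at 2.59 in myrAKT, BMPER at -3.80 in myrAKT, and CDKN1A at 1.86 and NOG at -1.63 after MK2206.

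In order of level over the 6 groups, the 10 genes fell into different sequences. The order of ID3 had 1 gap, with myrAKT and WT overlapping at the bottom and the 4 knockout groups, treated and untreated, overlapping at the top. For TGFB2 the order from the bottom was myrAKT, KO2+MK, KO1+MK, KO2, WT and KO1, and only WT and KO1 overlapped. SMAD6 ran from KO1+MK through KO1, KO2+MK, WT and KO2 to myrAKT, with an overlap between WT and KO2 alone. In SKIL the sequence was KO1, KO1+MK, WT, KO2, KO2+MK and myrAKT, with the same single overlap. BAMBI and SMAD7 both had KO1+MK and KO2+MK at the top, apart from each other and from all untreated groups. For TGFB1 and ID1 each group overlapped the next.

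Across the 18 libraries the log2 CPM values of ID2 and ID4 had a Pearson correlation of 0.924, those of SMAD7 and BAMBI of 0.922 and those of SMAD7 and ID2 of 0.919. TGFB2 and SKIL had the lowest value of any pair, -0.763. These numbers describe libraries that share groups and treatment. The tested genes most like ID3 were SLC5A6 (0.988), SBDS (0.987) and ITGB1BP1 (0.984), and those most like TGFB2 were HK2 (0.991), PHACTR2 (0.988) and PHLPP1 (0.988). For ID2 they were ZNF510 (0.986), NAA30 (0.981) and PPM1D (0.979), and for ID4 MT1E (0.981), MAP3K2 (0.979) and MFAP3 (0.979). BAMBI was most like DNAJB1 (0.986), PLEKHO2 (0.985) and MKNK2 (0.978), and SMAD7 like ZNF426 (0.968), EFNB2 (0.961) and CCNT1 (0.958). For SMAD6 the genes were CALHM2 (0.974) and PALM (0.959), and for SKIL LPIN2 (0.973), CREG1 (0.945) and TMF1 (0.941). TGFB1 had ABHD4 (0.925), EPAS1 (0.915) and CHP1 (0.883), and ID1 reached 0.768 at most, with MOSPD3, followed by AMIGO1 (0.767) and GABARAP (0.744).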

How the data were processed

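Counts of reads per Ensembl gene, deposited by the authors, were analysed for all 18 libraries. Per the labels and the study's methods, RNA was depleted of ribosomal RNA, the libraries were sequenced as paired ends in 1 pool and 2 runs, and the reads were processed with FastQC, Trim Galore, HISAT2 (hg38), featureCounts and MultiQC. Versions, annotation, strand setting and the rule for reads in several genes are not given in the sources used here.

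Symbols were matched for 56948 of 57448 identifiers, and positions were taken from GENCODE release 44. Genes that reached 1 CPM in 3 or more libraries were tested with edgeR 4.0.16 in R 4.3.3 (TMM normalization, quasi-likelihood test, groups compared pairwise, Benjamini-Hochberg adjustment over the 15587 genes) and called at an adjusted p of 0.001 or less, with no minimum fold change. The interaction was fitted on 12 libraries. The SE of a log2 fold change was its size divided by the square root of F. CPM values are on TMM-normalized libraries, and log2 CPM carries a prior count of 2. Levels of different genes were compared per kilobase of exon. The edgeR test was also run on simulated counts. These had the same dispersion for every gene and no pool differences within a group, so they do not cover combined pools that differ. Alternatives were DESeq2 1.42.0, its size factors, library totals, no filter on low counts, all 18 libraries in 1 fit, the pool as a factor, a replicate block, an adjusted p of 0.05, a minimum fold change of 1.5 and leaving out every library once.

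The 10 genes, the pathway lists and the motifs were chosen with earlier results of these data known. From each list the text names the genes with the largest changes, up to 2 rises and 2 falls, among those called, without overlap between groups and with at least 1 CPM in the higher group, and for each of the 10 genes the 3 tested genes with the highest correlation. Some genes that this rule picks are not reported here. Promoter windows are RefSeq's (GRCh38.p14), cut to bases outside the GENCODE gene, and plots used matplotlib 3.10.9. The libraries of a group differed by more than sampling noise (mean chi-square of 2.14 to 9.78 over 18 pairs of replicates). Low genes rest on few counts, such as ID4 with 14 counts in 1 WT library.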

Additional observations from a re-analysis of the deposited data

Results flagged for a closer look

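The untreated knockout pools, compared with the same WT libraries, differed from each other in 3 of the 10 genes by a direct test, which called 12.6% of all tested genes. The log2 difference KO1 minus KO2 was -0.69 for SMAD6 and -0.55 for SKIL, both lower in KO1, and 0.41 for TGFB2, higher in KO1. With 3 libraries per group, no search for single libraries that stand apart was made.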

How the results depend on the processing

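Of 1390 values of the 10 genes under the alternatives other than changed thresholds, 1300 kept their direction and their side of the threshold, 2 kept their direction but had no adjusted p (ID4 and SMAD7 in the interaction with DESeq2), 23 newly passed, 40 no longer passed and 25 changed sign. Under the main settings 35 of 100 values had passed. The 40 could come from those 35 alone, and the 23 from the rest. The causes were not tested. Changed thresholds, which enter only the counts below, are stricter or looser by construction.

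The number of the 10 genes called in both knockout pools against WT went from 1 (32.1% of all genes called) to 2 with DESeq2 (41.4%), 2 with library totals (32.3%), 3 with all 18 libraries in 1 fit (48.4%) and 4 at an adjusted p of 0.05 (59.6%). For KO2 against WT it went from 3 (43.1%) to 5 without a filter on low counts (19.1% of a larger set) and to 5 at an adjusted p of 0.05 (66.3%). For treated against untreated knockouts it went from 5 (21.5%) to 7 with the pool as a factor (36.3%). All 18 libraries in 1 fit also gave 7 (37.2%). Library totals gave 6 (21.7%), as did an adjusted p of 0.05 (47.3%). With a minimum fold change of 1.5 it was 2 for KO1 (13.9%) and 2 for myrAKT (13.8%), each against WT, and 1 for KO1 against KO2 (2.62%). Leaving out 1 library at a time gave 1 to 2 genes for both pools against WT, 1 to 3 for KO2 against WT and 2 to 4 for the knockouts against myrAKT.

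Samples with the same replicate number did not deviate together. The correlation of their deviations from the group means ranged from -0.518 to 0.297 over 45 pairs, and was above 0.1 in 12, so the numbers only name samples. With a replicate block the count for the knockouts against myrAKT went from 4 (35.8%) to 2 (27.2%), with SMAD6 (adjusted p = 0.00226) and BAMBI (0.00212) lost, and TGFB1 passed in treated against untreated KO2 (0.19, adjusted p = 0.000335).

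Sign changes occurred for values close to 0. For KO1 against KO2, ID3 had -0.000846 with DESeq2, -0.000879 with its size factors and -0.0116 with library totals, and without the filter BAMBI had 0.00144 and TGFB1 0.0184. Leaving out single libraries gave -0.11 to 0.0032 (ID1) and -0.039 to 0.068 (SMAD7) in both pools against WT, -0.095 to 0.018 (ID1) in KO1 against WT, and -0.0499 to 0.19 (SMAD7) and -0.014 to 0.055 (SKIL) in KO2 against WT. In KO1 against KO2 it gave -0.0038 to 0.077 (ID1), -0.025 to 0.049 (ID3) and -0.10 to 0.044 (BAMBI), and for ID1 in treated against untreated KO2 -0.064 to 0.0295. For the MK2206 effect between pools it gave -0.17 to 0.12 (ID2), -0.33 to 0.12 (ID4) and -0.0031 to 0.17 (SMAD6).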
